A study of Mus musculus with 24 samples.

Results

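Livers of mice without hepatic FoxO1 were set directly against livers of mice without hepatic PPARα on a regular diet. The comparison used 6 of the 24 liver RNA-seq libraries of the study, chosen by their labels: 3 titled RD LFKO (genotype FoxO1-/-) and 3 titled RD LPKO (genotype PPARα-/-). All 34945 named genes were in the table and 10551 had a mean of at least 1 TPM (the share of all transcripts taken by a gene, on a scale common to all libraries) and were tested. Mice with floxed FoxO1 or PPARα alleles had been crossed with Albumin-Cre mice, which delete a floxed gene in hepatocytes, and livers were taken after a fast of 4 h. The control livers (WT) are labelled FoxO1lox/lox and PPARαlox/lox, and the double knockouts (LFPKO) lack both genes by label. All 4 genotypes were also studied on a high-fat diet (HFD), with 3 libraries in each of the 8 groups. Both the regular and the high-fat diet were given for 3 weeks. The labels do not say that each library is a separate mouse, so the p-values measure the spread between libraries. Age and sex are not given in the labels.

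FoxO1 is a transcription factor that insulin drives out of the nucleus. In the fasted liver it is known to promote glucose production and to restrain insulin-driven lipid synthesis. PPARα is a nuclear receptor activated by fatty acids. In the fasted liver it induces genes that take up, activate and oxidise fatty acids, form ketone bodies and make the hormone FGF21. The direct comparison asks in which genes the loss of one factor and the loss of the other leave the liver in different states. A difference between these groups can come from either genotype, so WT and double-knockout values are given beside it as description.

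The summed mRNA of 20 genes of mitochondrial fatty acid oxidation was 4704 to 4905 TPM in LFKO, 4015 to 4374 TPM in WT and 2488 to 2765 TPM in LPKO libraries. In TPM as deposited, every LFKO library lay above every WT library and every LPKO library below. The gap between LFKO and WT was not tested, and it does not hold for every library after rescaling. Median-of-ratios size factors ran from 0.988 to 1.131 in WT and from 1.077 to 1.132 in LFKO libraries. Divided by its factor, WT replicate 1 (4374 TPM, factor 0.988) lies above LFKO replicate 3 (4704 TPM, factor 1.132). LFKO livers also had more mRNA of the female-biased cytochrome P450 Cyp2b9, at 83.9 ± 35.8 TPM against 0.340 ± 0.158 in LPKO livers (mean ± SD, n = 3 here and below). LPKO livers had more male-biased major urinary protein (Mup) mRNA, with Mup20 at 19207 ± 2050 TPM against 2024 ± 560 in LFKO livers. They also had more of the calcium-binding protein gene Cib3 and of the translation inhibitor gene Eif4ebp3. In all, 658 genes, or 6.24% of those tested, passed an adjusted p of 0.05 in limma, of which 328 (3.11%) were higher in LFKO and 330 (3.13%) were lower. Of these, 142 and 88 differed at least 2-fold and 38 and 19 at least 4-fold on the log2(TPM + 1) scale, on which every fold change below is given as LFKO minus LPKO. This scale understates the change of genes near 1 TPM. The median log2 fold change was 0.93 in the higher and -0.68 in the lower set, and -0.01 over all genes tested. The 3 LFKO and 3 LPKO values did not overlap for 328 genes of each set, and for 36.3% of all genes tested. The count of calls fell to between 391 and 458 when any 1 of the 6 libraries was left out. It rose to 1308 (389 higher, 919 lower) when Mup and mitochondrial genome transcripts were taken out and the rest rescaled.

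**Figure D1:**
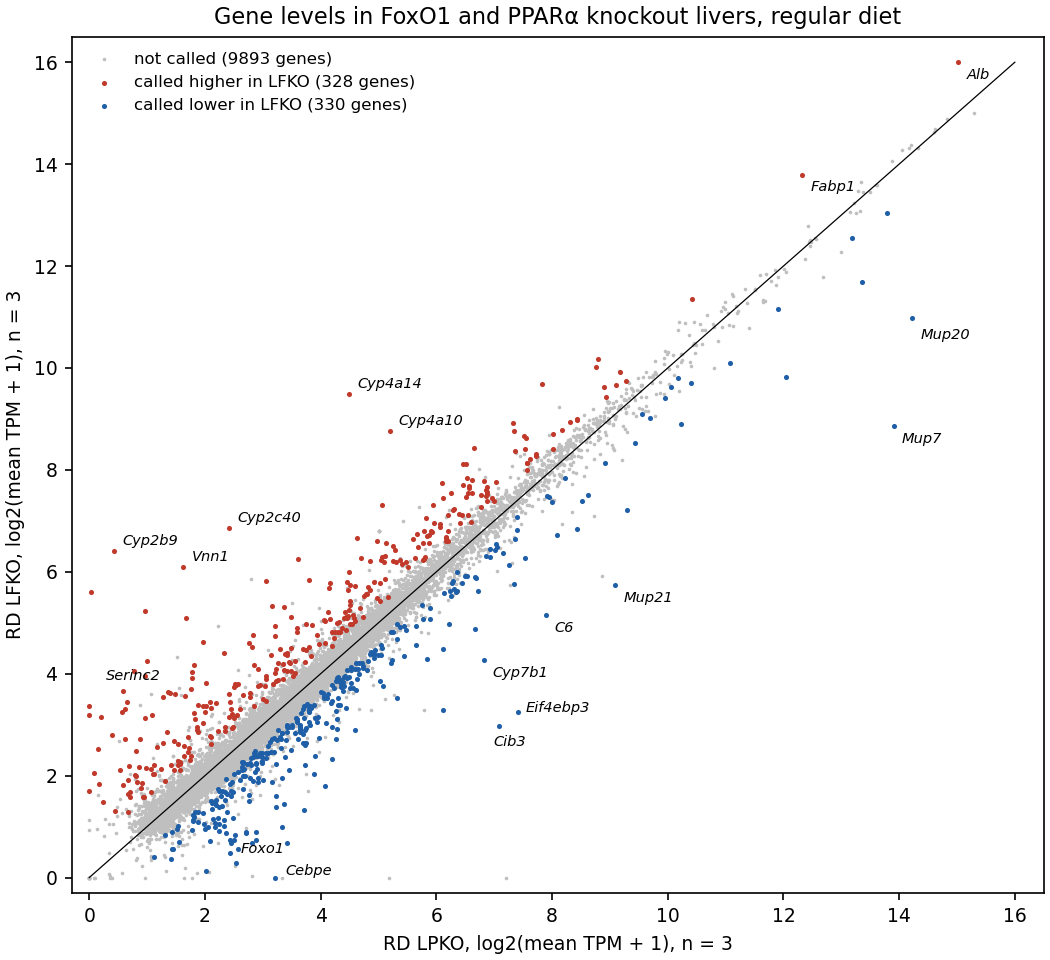
Mean level of each tested gene in LPKO (x axis) and LFKO livers (y axis) on the regular diet, both as log2(mean TPM + 1) of 3 libraries. Red points are the 328 genes called higher in LFKO, blue points the 330 called lower and grey points the 9893 not called. Cyp2b9, Cyp4a14 and Vnn1 lie far above the line of equal levels, and Mup7, Mup21 and Cib3 far below it.

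Foxo1 itself (chromosome 3, 52268336 to 52353221, plus strand, GRCm38, GENCODE M21) checks the FoxO1 label. It was at 0.407, 0.308 and 0.484 TPM in the LFKO libraries and at 4.22, 4.30 and 4.71 TPM in the LPKO libraries. The groups did not overlap, and the LPKO libraries lay at the level of WT livers (4.31 ± 0.206 TPM). The log2 fold change was -1.95 ± 0.14 (SE, adjusted p = 2.69e-08, limma), or -3.19 with a pseudocount of 0.1 in place of 1. Ppara was at 61.5, 61.0 and 61.3 TPM in LFKO and at 70.1, 64.6 and 63.4 TPM in LPKO libraries (-0.11, 95% interval -0.40 to 0.19, adjusted p = 0.748, limma). A TPM over the whole gene need not fall when part of a gene is deleted, so this value does not check the PPARα label, and LPKO below means the libraries so labelled. Foxo3, a related factor, was lower in LFKO (7.81 ± 0.471 TPM) than in LPKO livers (13.9 ± 0.864 TPM), with WT at 8.07 ± 0.431 TPM. Its change of -0.76 ± 0.20 (adjusted p = 0.0233, limma) lost the call without any 1 of the 6 libraries (adjusted p = 0.0582 to 0.0951) and, at 0.0518, with no filter on low values. Foxo4 was at 9.58 and 9.46 TPM and was not called. None of the 8 PPAR, RXR and PGC-1 genes was called by limma on the regular diet, and 0 had an unadjusted p under 0.05, with log2 fold changes between -0.20 and 0.11. The 3 LFKO and 3 LPKO values of Ppara did not overlap, as for 36.3% of all genes tested. On the high-fat diet Ppara was called lower in LFKO (57.83 against 80.85 TPM, -0.50, adjusted p = 0.0465, limma).

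The regulatory sequence of 4 genes described below is shown because each holds the core of a site that one of these factors is known to bind. GTAAACA is the forkhead core. The element bound by PPARα with RXR, searched as AGGNCA, any 1 base and AGGNCA again, is called the PPAR repeat here. The letters cover the 250 bases before the start of 1 RefSeq transcript of the gene, 5′ to 3′ on the gene's strand, from RefSeq on GRCm38.p6, with the match in capitals. Fabp1 (chr6:71199629-71199878) holds the PPAR repeat on the opposite strand, Cyp2d9 (chr15:82452127-82452376) holds it on its own strand, Mgll (chr6:88724162-88724411) holds the forkhead core on its own strand and Prlr (chr15:10223656-10223905) on the opposite strand. All 4 genes lie on the plus strand. In GENCODE M21 the Prlr gene begins at 10177238 and the Cyp2d9 gene at 82433437, so these windows lie inside the annotated genes, before a transcript that starts further along. The end of the Fabp1 window likewise runs past the GENCODE start at 71199827.
Fabp1: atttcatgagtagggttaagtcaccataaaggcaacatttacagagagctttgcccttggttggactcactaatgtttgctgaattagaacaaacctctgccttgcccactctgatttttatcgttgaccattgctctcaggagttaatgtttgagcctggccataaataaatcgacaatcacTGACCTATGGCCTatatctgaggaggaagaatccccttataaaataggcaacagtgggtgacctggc
Cyp2d9: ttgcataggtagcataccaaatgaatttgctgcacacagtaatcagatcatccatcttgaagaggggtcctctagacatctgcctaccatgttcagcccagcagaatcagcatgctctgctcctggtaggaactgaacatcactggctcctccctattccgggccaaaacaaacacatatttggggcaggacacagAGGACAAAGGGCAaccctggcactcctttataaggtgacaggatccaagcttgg
Mgll: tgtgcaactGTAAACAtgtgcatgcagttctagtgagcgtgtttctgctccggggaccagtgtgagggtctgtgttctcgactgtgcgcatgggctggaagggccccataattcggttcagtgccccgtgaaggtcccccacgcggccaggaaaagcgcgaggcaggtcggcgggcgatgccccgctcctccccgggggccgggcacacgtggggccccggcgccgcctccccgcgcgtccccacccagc
Prlr: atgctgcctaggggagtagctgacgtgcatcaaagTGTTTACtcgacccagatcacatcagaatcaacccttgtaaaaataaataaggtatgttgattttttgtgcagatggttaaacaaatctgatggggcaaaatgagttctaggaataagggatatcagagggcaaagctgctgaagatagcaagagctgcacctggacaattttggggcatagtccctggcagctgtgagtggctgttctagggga
Between the match and the start of that transcript lie 54, 41, 234 and 208 bases, in that order. A gene with several RefSeq starts was counted as holding a motif if any of its windows did. GTAAACA, searched on both strands, was in 10 of the 251 genes called higher that have a RefSeq window (3.98%), in 6 of 252 called lower (2.38%) and in 245 of 8255 genes tested (2.97%). The PPAR repeat was in 1 of 251 (0.398%), 1 of 252 (0.397%) and 33 of 8255 (0.4%). A match is a description of letters in this window, and its absence says nothing of sites elsewhere.

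The fat-oxidation genes made up the clearest block of the higher set. Of 20 tested genes of mitochondrial fatty acid oxidation, 16 were called higher in LFKO and 0 lower, with a median log2 fold change of 0.99 against -0.01 over all genes and a background of 3.11% called higher. The count stayed between 14 and 17 under every alternative run. Slc25a20, which carries acylcarnitines into mitochondria, was at 101, 101 and 98.3 TPM in LFKO and at 24.6, 22.7 and 23.6 TPM in LPKO libraries. The groups lay 4.24-fold apart with little spread within either (2.04 ± 0.17, adjusted p = 1.21e-07, limma), and WT livers were at 82.5 ± 12.9 TPM. Cpt2, the inner-membrane carnitine transferase, was at 95.7 ± 3.27 against 30.4 ± 4.01 TPM, and WT at 96.3 ± 16.9 TPM. Etfdh, which passes electrons from acyl-CoA dehydrogenases to ubiquinone, was at 173 ± 1.68 against 68.5 ± 2.53 TPM. Acadvl (very-long-chain acyl-CoA dehydrogenase), Eci2 (enoyl-CoA isomerase) and Acsl1 (acyl-CoA synthetase) differed by 1.33, 1.61 and 1.42. The 4 members not called, named after their values were seen, were Cpt1a, Acadm, Echs1 and Etfa. Cpt1a, the outer-membrane carnitine transferase usually called rate-limiting, was at 152, 153 and 158 TPM in LFKO and 172, 143 and 155 TPM in LPKO libraries. Its groups overlapped, and the 95% interval of its log2 fold change ran from -0.26 to 0.23.

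Peroxisomal genes showed the same split, with 14 of 22 called higher in LFKO and 0 lower (median 0.98, 12 to 17 called under the alternatives). Of all genes 3.11% were called higher. Decr2, the peroxisomal dienoyl-CoA reductase, was at 158, 158 and 159 TPM in LFKO and at 34.4, 27.1 and 35.2 TPM in LPKO libraries (2.27 ± 0.15, adjusted p = 5.92e-09, limma). WT livers lay between, at 113 ± 4.74 TPM, nearer the LFKO libraries. Ech1, a dienoyl-CoA isomerase, was at 349, 366 and 311 TPM in LFKO and at 108, 85.0 and 107 TPM in LPKO libraries. Abcd2 and Abcd3, transporters of fatty acyl-CoA into peroxisomes, differed by 3.25 and 1.01. Abcd2 was at 16.3, 21.1 and 16.6 TPM in LFKO livers, above both WT (3.93 ± 0.581) and LPKO (0.993 ± 0.258). Hsd17b4, the bifunctional enzyme, and Pex11a, which drives peroxisome division, differed by 1.11 and 1.34.

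Microsomal omega-hydroxylases, which oxidise the far end of a fatty acid, split within the family. Of 10 genes, 4 were called higher in LFKO and 1 lower, beside 3.11% and 3.13% of all genes. Cyp4a14 (chromosome 4, 115486200 to 115496142, minus strand) was at 756, 783 and 608 TPM in LFKO and at 16.9, 8.81 and 38.6 TPM in LPKO libraries. The lowest LFKO library lay far above the highest LPKO one (5.22 ± 0.70, adjusted p = 4.24e-05, limma), and WT livers ranged widely at 526 ± 263 TPM. Cyp4a10 was at 434 ± 38.7 against 35.9 ± 15.2 TPM (3.63 ± 0.55), with 44.9% of its 31-base words shared with other genes, mainly Cyp4a31 and Cyp4a32. Those neighbours differed by 2.41 and 2.11, and reads of the 3 genes may be split between them. Cyp4v3 was lower in LFKO (135 ± 13.0 against 167 ± 9.94 TPM, -0.31, adjusted p = 0.0396, limma). It was no longer called under 6 of 13 alternatives, among them median-of-ratios scaling, a fit of the compared groups alone, and leaving out LFKO replicate 2 or 3 or LPKO replicate 1 or 3 (adjusted p = 0.0616 to 0.182).

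Of 6 genes of ketone body synthesis and export, 3 were called higher in LFKO and 0 lower, beside 3.11% of all genes called higher. The median log2 fold change was 0.59 (3 or 4 called under the alternatives). Acat1, a mitochondrial thiolase, was at 181, 179 and 180 TPM in LFKO and at 108, 108 and 108 TPM in LPKO libraries. The groups did not overlap and varied little within themselves, with WT between them at 148 ± 8.99 TPM (0.73 ± 0.15, adjusted p = 0.00327, limma). Bdh1, the hydroxybutyrate dehydrogenase (0.44, adjusted p = 0.0901, limma), and the transporters Slc16a1 (-0.18) and Slc16a6 (-0.44) were not called.

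Of 22 tested genes of a list of other PPARα targets, 13 were called higher in LFKO and 0 lower, beside 3.11% of all genes called higher. Their median was 1.15 (11 to 17 called under the alternatives). Vnn1 (chromosome 10, 23894688 to 23905343, plus strand), a pantetheinase, was at 71.9, 69.6 and 61.1 TPM in LFKO and at 2.28, 1.26 and 2.73 TPM in LPKO libraries (4.50 ± 0.33, adjusted p = 2.63e-08, limma). Fitm1, which acts in lipid droplet formation, was at 29.7, 31.4 and 38.9 against 1.98, 1.75 and 2.80 TPM (3.44 ± 0.40). WT livers were near the LFKO level for both, at 40.2 ± 18.3 and 28.9 ± 5.79 TPM. Fgf21, the fasting hormone, was at 6.16, 11.6 and 5.93 TPM in LFKO and at 0.268, 0.0449 and 0.141 TPM in LPKO libraries. The LFKO libraries were all above the WT libraries, which ran from 0.628 to 2.52 TPM. The log2 fold change was 2.90 ± 0.25 (adjusted p = 1.41e-07, limma), and 5.02 with a pseudocount of 0.1. Fabp1, the fatty acid binding protein whose promoter is printed above, was at 12567, 14113 and 15853 TPM against 5678, 4453 and 5248 TPM. It was the most abundant of these targets, and WT livers (9810.3 ± 1085 TPM) lay between the groups (1.47 ± 0.19, adjusted p = 3.01e-05, limma). Fitm2 and Mgll, the monoacylglycerol lipase, differed by 1.18 and 1.22. Pdk4, Angptl4 and Hilpda, often used to report PPARα activity, were not called in the fit of all 24 libraries and were named after their values were seen. Pdk4 was at 5.05 ± 0.625 TPM without FoxO1 and at 6.22 ± 2.02 TPM in the LPKO livers (-0.22, 95% interval -0.93 to 0.50), and Angptl4 at 49.2 ± 3.36 and 30.9 ± 2.05 TPM (0.65, 95% interval -0.39 to 1.69, adjusted p = 0.519, limma). The Angptl4 values did not overlap between the groups, and a fit of the compared groups alone called it higher in LFKO (adjusted p = 0.00387, limma).

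**Figure D2:**
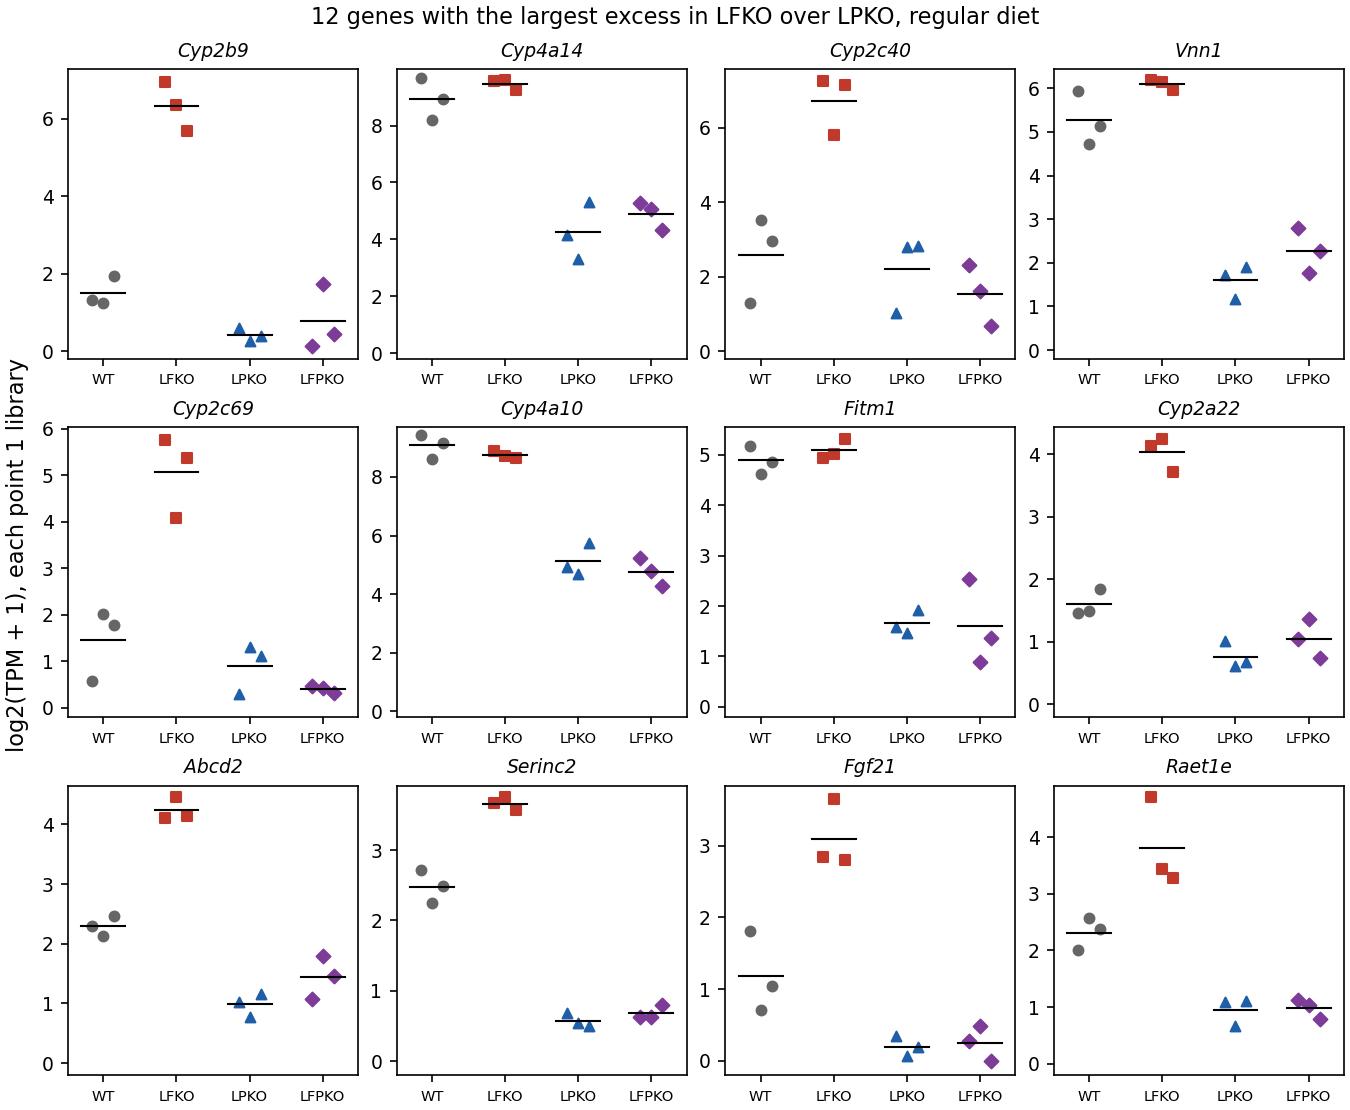
Levels of the 12 genes with the highest log2 fold change in LFKO over LPKO, as log2(TPM + 1), for the 4 genotypes on the regular diet. Each point is 1 library, bars are means of 3 and the y axes differ between panels. Cyp4a14, Vnn1, Cyp4a10 and Fitm1 are high in WT and LFKO livers, while Cyp2b9, Cyp2c40, Cyp2c69 and Cyp2a22 are high in LFKO livers alone.

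The other leading genes of the higher set were P450s of the Cyp2 family. Cyp2b9 (chromosome 7, 26173411 to 26210661, plus strand), which adult male mouse liver normally keeps low, was at 122, 80.2 and 50.1 TPM in LFKO and at 0.513, 0.205 and 0.3002 TPM in LPKO libraries. WT livers held 1.91 ± 0.825 TPM and double knockouts 0.926 ± 1.22 TPM, so that every LFKO library stood above all 9 others of this diet (5.90 ± 0.68, adjusted p = 8.27e-06, limma). Cyp2c40 was at 150, 54.7 and 141 TPM against 1.03, 5.91 and 6.12 TPM, and Cyp2c69 at 53.1, 15.99 and 40.6 TPM against 0.232, 1.46 and 1.15 TPM. LFKO replicate 2 was the lowest of its group for both. The genes share 72.6% and 64.9% of their 31-base words with other genes, mostly each other and Cyp2c67, so how the signal divides between them is uncertain. Cyp2a22 was at 15.5 ± 3.00 against 0.714 ± 0.272 TPM and WT at 2.06 ± 0.455 TPM. Serinc2 (11.7 ± 0.815 against 0.489 ± 0.107 TPM) and Raet1e, a ligand of the immune receptor NKG2D (14.5 ± 9.16 against 0.958 ± 0.317 TPM), completed the 12 highest. Raet1e shares 55.5% of its 31-base words with other genes.

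Some genes that differ between male and female mouse liver also differed here. Of 16 male-biased genes, 8 were called lower in LFKO and 0 higher (median -1.58), beside a background of 3.13% called lower, and 8 were not called, with 2 of the 16 values above 0. Of 16 female-biased genes only 7 passed the filter on low values, and 4 of these were called higher and 0 lower. The latter share is no support for the list, since a gene could pass through its high LFKO level, and 9 members were too low to test. Among them, Cyp2b13 was at 6.30, 1.43 and 0.644 TPM in LFKO libraries and listed at 0 in all LPKO libraries. The 4 called were Cyp2b9, Cyp2c40, Cyp2c69 and Prlr, the prolactin receptor, which was at 102, 83.6 and 97.4 TPM against 31.5, 34.96 and 36.1 TPM (1.44 ± 0.29, adjusted p = 0.00327, limma). Cyp2a4, another female-biased P450, was not called: LFKO libraries were at 227 to 233 TPM and LPKO libraries at 59.3, 130 and 150 TPM, with large spread in the double knockouts. The 10 genes of the growth hormone and IGF1 axis, which is known to set these differences, had 0 calls by limma, 0 at an unadjusted p under 0.05, and a median of -0.02. Their log2 fold changes ran from -1.31 to 0.35, so the median does not mean that each member was unchanged. On the high-fat diet 1 of them was called higher in LFKO.

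Among the male-biased genes, Mup20 was at 1726, 2669 and 1676 TPM in LFKO and at 19558, 17004 and 21059 TPM in LPKO libraries (-3.27 ± 0.39, adjusted p = 1.24e-05, limma). The WT libraries, at 5720.2, 7799 and 9511 TPM, all lay above the LFKO and below the LPKO libraries. Mup7 was at 545, 309 and 536 TPM against 10321, 26403 and 9277 TPM, and Mup21 at 34.6, 46.5 and 75.5 TPM against 417, 593 and 623 TPM. For these genes WT livers were near the LPKO level, at 9538 ± 2772 and 779 ± 239 TPM. Cyp7b1, a bile acid and steroid hydroxylase, was at 18.3 ± 4.92 against 113 ± 28.7 TPM, and WT at 132 ± 39.4 TPM (-2.56 ± 0.51, adjusted p = 0.00311, limma). Cyp2d9, whose promoter is printed above, was at 478 ± 53.0 against 1201 ± 131 TPM (-1.33 ± 0.16, adjusted p = 1.77e-05, limma). Serpina1e, an antitrypsin, differed by -1.71. Mup mRNA is so similar between members that 90% of the 31-base words of Mup7 and 64.5% of those of Mup20 occur in other genes. The sum over all 49 Mup genes does not depend on that split: it was 5.99% ± 0.911 of TPM in LFKO, 11.8% ± 2.32 in LPKO and 9.45% ± 1.99 in WT livers. With Mup genes taken out of the table the list kept 3 lower calls, since its Mup members were gone. Elovl3 and Slco1a1, also male-biased, were at 44.1 and 49.0 TPM and at 352 and 284 TPM and were not called.

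**Figure D3:**
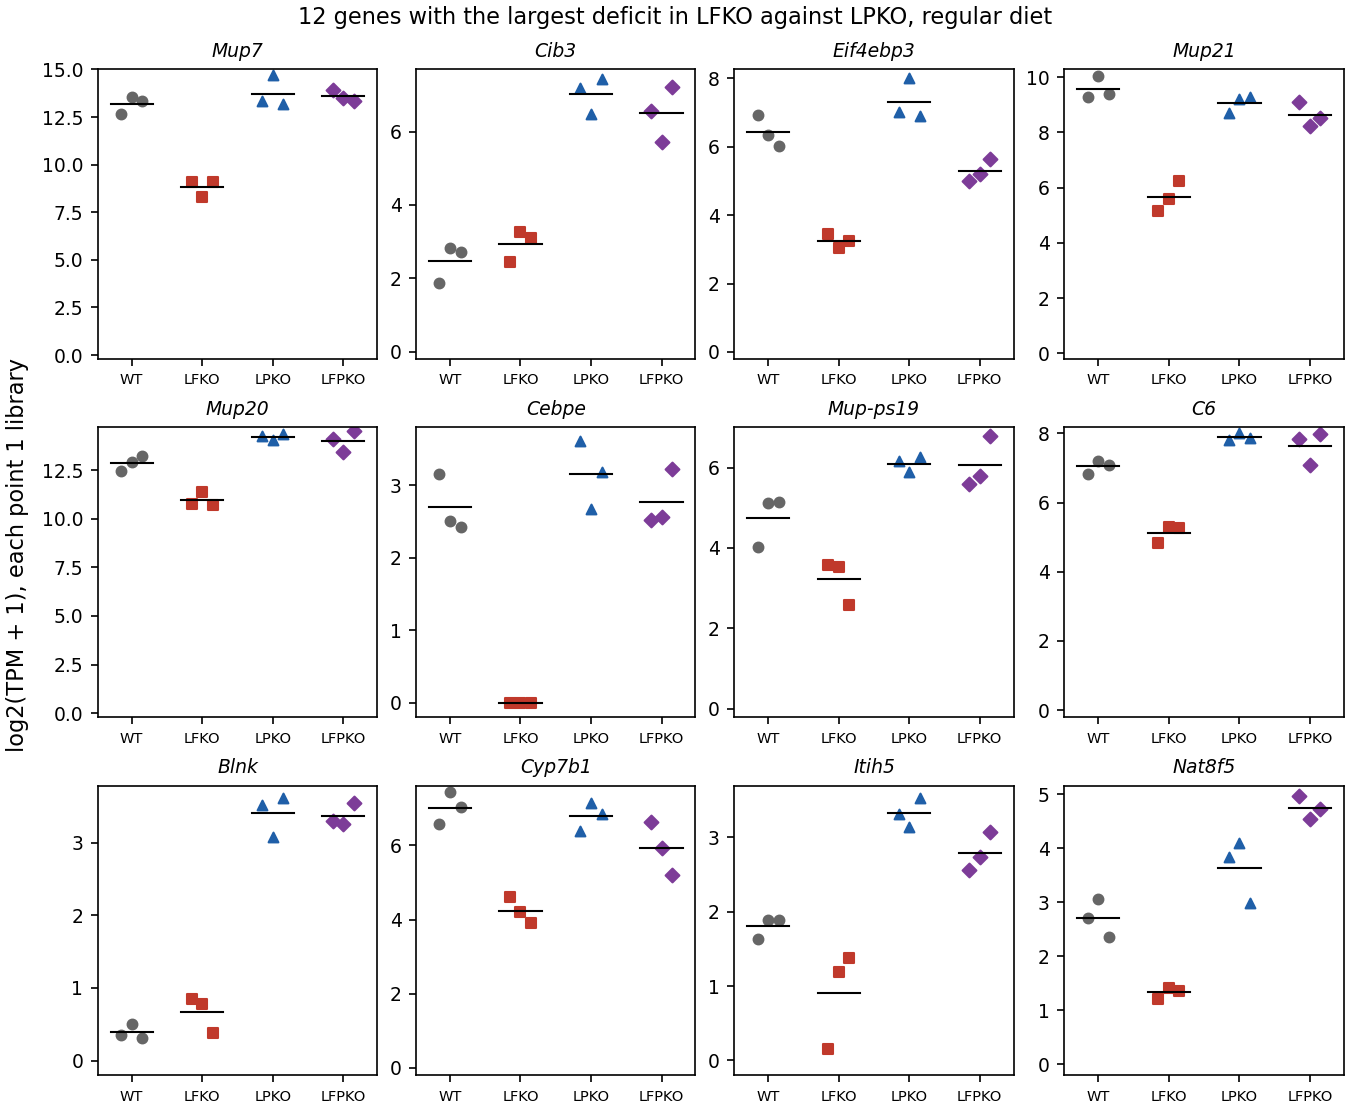
Levels of the 12 genes with the lowest log2 fold change in LFKO against LPKO, as log2(TPM + 1), for the 4 genotypes on the regular diet. Each point is 1 library, bars are means of 3 and the y axes differ between panels. Cib3 and Blnk are low in WT and LFKO and high in both groups labelled PPARα-/-, whereas Mup7, Mup21, Eif4ebp3 and Cyp7b1 are low in LFKO livers and high in WT livers.

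The other genes among the 12 lowest differed in where WT livers lay. Cib3, a calcium- and integrin-binding protein, was at 4.43, 8.63 and 7.64 TPM in LFKO, 2.62, 6.16 and 5.59 TPM in WT and 145, 88.3 and 171 TPM in LPKO libraries. Its LFKO and WT libraries overlapped, and all LPKO libraries stood far above them (-4.09 ± 0.48, adjusted p = 1.06e-05, limma). Blnk, an adaptor of B-cell receptor signalling, likewise had 0.609 ± 0.264 TPM in LFKO livers, 0.312 ± 0.0936 in WT and 9.71 ± 2.05 in LPKO (-2.73 ± 0.24). Eif4ebp3, a repressor of cap-dependent translation, was low in LFKO livers and high in WT, at 9.85, 7.17 and 8.40 TPM in LFKO, 88.5 ± 29.0 TPM in WT and 128, 258 and 119 TPM in LPKO libraries (-4.08 ± 0.32, adjusted p = 4.87e-08, limma). A read-through gene shares 66.4% of its 31-base words, so part of this value may belong to it. Cebpe, a C/EBP-family transcription factor, was listed at 0 in all 3 LFKO libraries and at 11.3, 5.40 and 8.12 TPM in LPKO libraries, with WT at 4.35 to 7.91 TPM. C6, a component of the complement attack complex, was at 34.4 ± 6.13 against 238 ± 17.6 TPM, with WT at 132 ± 17.1 TPM between them. Itih5, a hyaluronan-associated protein (1.001 ± 0.790 against 9.09 ± 1.38 TPM), Nat8f5 (1.52 ± 0.183 against 12.2 ± 4.76 TPM) and the Mup pseudogene Mup-ps19 (8.82 ± 3.30 against 68.0 ± 9.09 TPM) completed the 12 lowest. Their WT means also lay between the groups, at 2.50, 5.68 and 27.6 TPM. Mup-ps19 shares 94.1% of its 31-base words with other genes, Mup20 among them, so its value may hold reads of those genes.

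Of 18 genes tied to FoxO1 and insulin, Srebf1 was called higher in LFKO, and Eif4ebp3 and Sesn3 were called lower, beside 3.11% and 3.13% of all genes. An unadjusted p under 0.05 was reached by 8 of the 18 (44.4%), against 19% of all genes tested. Srebf1, which encodes the insulin-responsive activator of lipid synthesis SREBP-1, was at 71.6, 67.1 and 89.2 TPM in LFKO and at 24.8, 25.0 and 24.6 TPM in LPKO libraries (1.57 ± 0.33, adjusted p = 0.00552, limma). WT livers were at 60.7 ± 21.1 TPM, so the LPKO libraries were the ones below control. Sesn3, a stress-induced inhibitor of mTORC1, was at 2.78 ± 0.382 against 7.05 ± 0.920 TPM, with WT at 4.09 ± 0.496 TPM (-1.09 ± 0.16, adjusted p = 1.53e-04, limma). Igfbp1, a secreted IGF-binding protein, was at 45.2, 41.0 and 70.5 TPM against 149, 60.0 and 252 TPM and was not called (-1.35, adjusted p = 0.235, limma), and without LPKO replicate 3 its change was -0.89.

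Of 12 genes of glucose release and use, 1 was called lower in LFKO and 0 higher, beside 3.13% and 3.11% of all genes. An unadjusted p under 0.05 was reached by 3 of the 12 (25%), against 19% of all genes tested. G6pc, which releases glucose in the last step of gluconeogenesis, was at 61.3, 75.3 and 109 TPM in LFKO and at 74.9, 80.1 and 94.0 TPM in LPKO libraries. Both groups were far below the WT libraries at 180 to 237 TPM and did not differ beyond their spread (-0.05, 95% interval -0.77 to 0.67, adjusted p = 0.957, limma). G6pc was named after its values were seen. Slc37a4, the glucose-6-phosphate transporter that works with it, was the gene called (78.3 ± 6.23 against 116 ± 12.9 TPM, -0.55, adjusted p = 0.0259, limma). It lost the call without LFKO replicate 1 or 3 or LPKO replicate 1 or 2 (adjusted p = 0.053 to 0.13). Pck1, the cytosolic carboxykinase, was at 751 ± 109 against 1165 ± 140 TPM and was not called (-0.64, adjusted p = 0.26, limma).

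Lipid synthesis and export genes gave 1 call higher and 2 lower, beside 3.11% and 3.13% of all genes. Among 16 fatty acid synthesis genes, 5 had an unadjusted p under 0.05 (31.2%, against 19% of all genes), and Acacb was called lower (10.5 ± 4.57 against 18.6 ± 2.34 TPM, -0.85, adjusted p = 0.0207, limma). Acacb encodes the acetyl-CoA carboxylase whose product inhibits carnitine transfer, and its call was lost without LFKO replicate 1 or 2 or LPKO replicate 2 and in a fit of the compared groups alone (adjusted p = 0.0633 to 0.154). None of 24 cholesterol synthesis genes was called by limma and 8 had an unadjusted p under 0.05 (33.3%), with 20 negative values and a median of -0.36. Under the alternatives 0 to 5 of them were called lower. Of 17 apolipoprotein and lipoprotein genes, 3 had an unadjusted p under 0.05 (17.6%). Pltp, the phospholipid transfer protein, was called higher (25.8 ± 8.17 against 8.29 ± 1.52 TPM, 1.503, adjusted p = 0.0149, limma). It rested on LFKO replicate 3, which stood at 35.3 TPM, and on LPKO replicate 2 (adjusted p = 0.0876 and 0.067 without them). Apoa4 was called lower, at 76.0 ± 8.80 against 184 ± 67.2 TPM with WT at 35.5 ± 17.3 TPM (-1.21, adjusted p = 0.0267, limma). Its call was lost without any 1 LFKO library or LPKO replicate 1, where the change was -0.93, and with no filter on low values (adjusted p = 0.057 to 0.167).

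Bile acid genes went both ways, with 2 of 18 called higher and 2 lower, beside 3.11% and 3.13% of all genes. An unadjusted p under 0.05 was reached by 6 of the 18 (33.3%), against 19% of all genes tested. Cyp8b1, the 12-alpha-hydroxylase that sets the cholic acid share, was at 100, 150 and 92.3 TPM in LFKO and at 305, 313 and 421 TPM in LPKO libraries (-1.61 ± 0.36, adjusted p = 0.00761, limma). Cyp7b1 of the alternative pathway was the other lower gene. Acox2, the peroxisomal oxidase of bile acid side chains, was higher (121 ± 3.18 against 66.2 ± 8.65 TPM, 0.87, adjusted p = 0.00112, limma). Hsd3b7 was called at an adjusted p of 0.0497 (limma) and lost the call under 9 of 13 alternatives, among them leaving out any 1 of the 6 libraries (0.0862 to 0.181).

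Alb, which encodes serum albumin and was the most abundant called gene, was at 64467, 67025 and 65337 TPM in LFKO and at 35508, 31005 and 33102 TPM in LPKO libraries. WT livers lay between at 45445 ± 1412 TPM, and the difference was 0.98 ± 0.20 (adjusted p = 0.00315, limma, but 0.101 with no filter on low values). Albumin-Cre uses the promoter of this gene, and the design text gives it for both knockouts. Alb was the 1 hepatocyte marker called of 11, beside 3.11% of all genes called higher. Of the 11 markers 3 had an unadjusted p under 0.05 (27.3%). Of 20 amino acid and urea cycle genes, 2 were called lower: Got1, the cytosolic aspartate aminotransferase (104 ± 32.0 against 270.0 ± 55.8 TPM, adjusted p = 0.0113, limma), and Cps1, the first enzyme of the urea cycle (-0.54, adjusted p = 0.0276, limma). Got1 lost the call without LFKO or LPKO replicate 2, (adjusted p = 0.084 and 0.0598), and Cps1 without replicate 2 or 3 of either group or with no filter (0.0515 to 0.166). Under the alternatives 0 to 8 genes of this list were called lower. An unadjusted p under 0.05 was reached by 7 of its 20 genes (35%), against 19% of all genes tested, of which 3.13% were called lower. Among 17 interferon-response genes, Usp18 (5.66 ± 1.93 against 14.7 ± 3.30 TPM, -1.25) and Irf7 (11.9 ± 2.23 against 23.6 ± 4.26 TPM, -0.93) were called lower and 0 higher, with WT at 2.72 and 8.76 TPM. An unadjusted p under 0.05 was reached by 5 of these 17 genes (29.4%). None of the 20 drug-metabolism or 16 clock genes was called by limma. At an unadjusted p under 0.05 were 4 and 3 of them (20% and 18.8%), near the 19% of all genes tested.

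**Figure D4:**
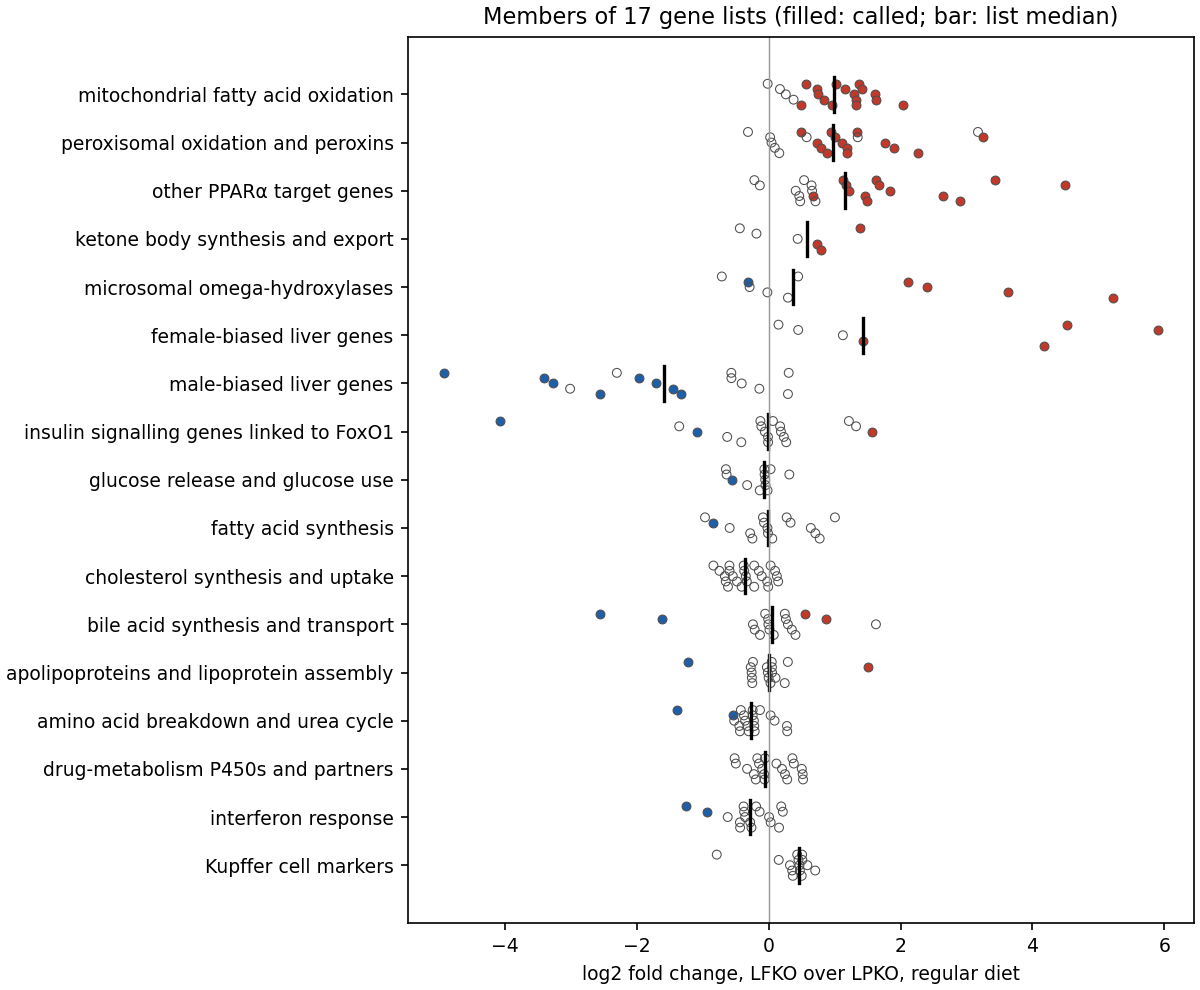
Log2 fold change of LFKO over LPKO livers on the regular diet for the tested members of 17 gene lists. Each circle is 1 gene, filled where limma called it, and the bar is the median of the list. Fat-oxidation and PPARα target lists lie right of 0 with medians of 0.98 to 1.15, the male-biased list lies left with a median of -1.58, the cholesterol list has a median of -0.36, and the medians of the glucose and fatty acid synthesis lists lie near 0.

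Whole liver holds several cell types, and in such samples fewer cells of a type cannot be told apart from less RNA per cell. No marker of Kupffer, stellate, sinusoidal endothelial, bile duct, lymphoid or red blood cells was called by limma in the main fit, and 2 of 49 had an unadjusted p under 0.05, against 19% of all genes tested. Under the alternatives 0 to 2 Kupffer cell markers were called higher and 0 or 1 lower, and 0 or 1 sinusoidal endothelial marker was called lower. Kupffer cell markers were positive for 13 of 14 genes (median 0.46), with a summed level of 157 to 210 TPM in LFKO and 117 to 161 TPM in LPKO libraries. Their part in the results was not tested. The genes called higher took 11.3% ± 0.198 of all TPM in LFKO and 5.54% ± 0.373 in LPKO livers, and those called lower took 3.58% ± 0.259 and 9.97% ± 1.42. A few abundant genes weigh heavily in these shares. Alb, in the higher set, was at 65610 and 33205 TPM on its own. Without Mup genes the lower set took 2.36% ± 0.252 and 4.47% ± 0.404. The shares use the same values that called the genes and are given as description.

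WT livers were nearer to LFKO than to LPKO livers for 213 of the 328 genes called higher (64.9%) and 234 of the 330 called lower (70.9%), against 51.3% of all genes tested. Double-knockout livers were nearer to LPKO for 297 of the higher genes (90.5%) and 252 of the lower genes (76.4%), against 61.7% of all genes tested. Under the alternatives, which called both sets anew, the WT shares ran from 52.5% to 75.3% and from 57.8% to 76.2%. Cyp4a14 (29.8 ± 9.39 TPM in double knockouts) and Blnk (9.33 ± 1.14 TPM) lay near LPKO. Eif4ebp3 in double knockouts (38.7 ± 9.61 TPM) lay above LFKO and below LPKO livers. These shares use the same LFKO and LPKO values that called the genes and are given as description.

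The same genotypes on the high-fat diet gave 6 further libraries in which to read the genes. Of 10551 genes, 484 (4.59%) were called there, 350 higher in LFKO (3.32%) and 134 lower (1.27%). Of the 328 genes higher on the regular diet, 324 (98.8%) kept their sign and 209 (63.7%, and 59.7% of those higher on the high-fat diet) were called the same way. Of the 330 lower genes, 296 (89.7%) kept their sign and 84 (25.5%, and 62.7% of those lower on the high-fat diet) were called. Each refit of the regular diet called its sets anew, so its share is of a changed set of genes. The share of 63.7% became 16% in fits of the compared groups alone and ran from 45.1% to 81.7% without any 1 library. The groups alone gave 739 genes higher on the regular and 132 on the high-fat diet. The share of 25.5% became 7.61% in the groups alone and ran from 20% to 39.5%. For it the groups alone gave 631 genes lower on the regular and 70 on the high-fat diet. The share was 39.5%, 38.6% and 38.8% without regular-diet LFKO replicate 2, LPKO replicate 1 and LPKO replicate 3. Those refits left 167, 166 and 178 genes lower on the regular diet. The sign was shared by 64.3% of all genes tested, and 0 genes of either set were called in the opposite direction. Vnn1 held its difference (71.0 against 1.85 TPM, 4.72), as did Cyp4a14 (467 against 6.99 TPM, 5.73), Cyp2b9 (70.7 against 0.476 TPM, 4.96) and Fitm1 (3.49). Cyp2b9 varied widely, at 8.695, 50.7 and 152.6 TPM in the high-fat LFKO and 1.329, 0.0786 and 0.0208 TPM in the high-fat LPKO libraries. Cyp4a14 was at 126, 524 and 750 TPM in the high-fat LFKO libraries, replicate 1 being the low one, and without that replicate the high-fat count rose to 1244 (1105 higher, 139 lower). Without high-fat LFKO replicate 2 or 3 it was 273 or 283. Of the 16 male-biased genes 2 were called lower there (median -0.53), with Mup7 at 37746, 8551 and 892 TPM in LFKO and 23465, 21279 and 59211 TPM in LPKO libraries and no call (-2.23, adjusted p = 0.129, limma). On this diet the genes lowest in LFKO were Igfbp1 (19.3 against 148 TPM, -3.20 ± 0.62, adjusted p = 0.00253, limma), Serpine2, Mup-ps20, Foxo1 and Serpinb1a.

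Cyp2c69 was the 1 gene of 10551 (0.00948%) whose LFKO-to-LPKO difference itself differed between the diets, while 604 genes did so at an unadjusted p under 0.05. On the high-fat diet it was at 0.533, 0.183 and 0.855 TPM in LFKO and at 0.119, 0 and 0.102 TPM in LPKO libraries. The difference was 4.17 on the regular and 0.48 on the high-fat diet (interaction 3.69 ± 0.51, adjusted p = 0.00575, limma). With a pseudocount of 0.1, or with Mup and mitochondrial genome transcripts taken out, 0 genes passed. Cyp2c40 had low values too, at 2.56, 0.941 and 2.52 TPM against 0.847, 0.200 and 0.595 TPM on the high-fat diet. Fgf21 was at 1.14, 0.896 and 1.65 TPM in high-fat LFKO libraries, below their regular-diet values, and its interaction was not called (1.97 ± 0.35, adjusted p = 0.086, limma).

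**Figure D5:**
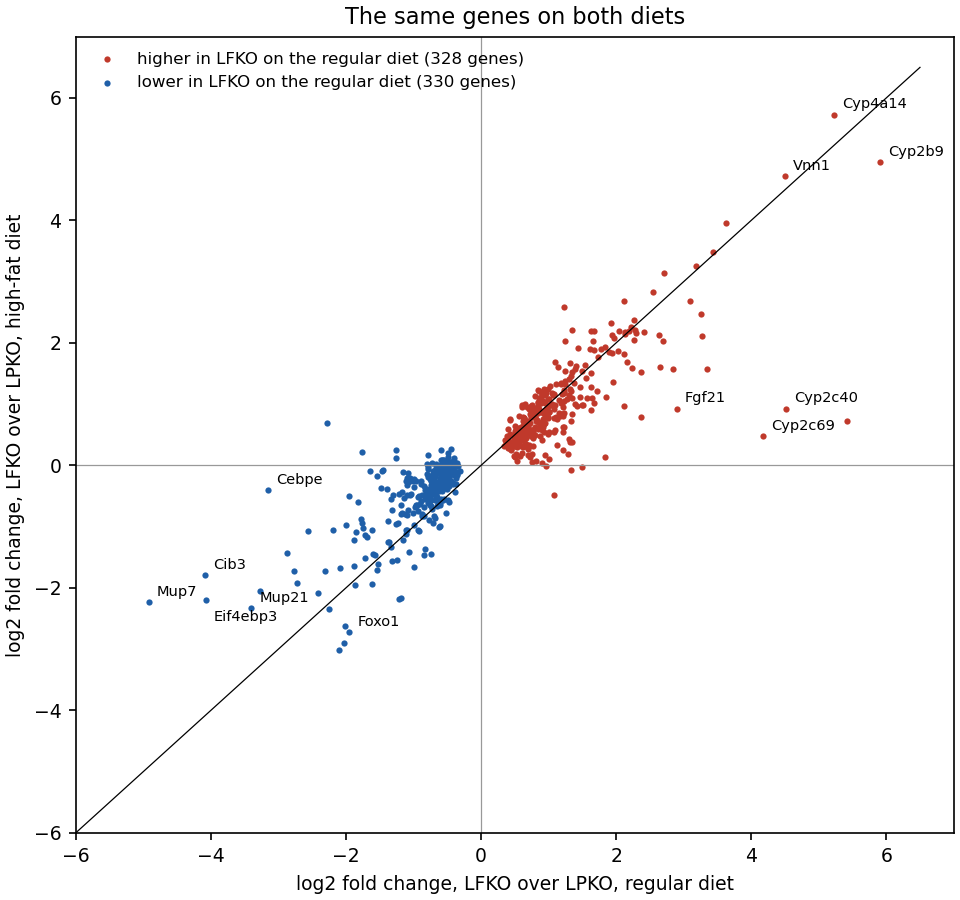
Log2 fold change of LFKO over LPKO livers on the regular (x axis) and high-fat diet (y axis) for the 328 genes called higher (red) and 330 called lower (blue) on the regular diet. The line marks equal change on both diets. Cyp4a14, Vnn1 and Cyp2b9 lie near the line, Cyp2c69 and Cyp2c40 near 0 on the high-fat axis, and Foxo1 at -1.95 and -2.73.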

How the data were processed

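The authors deposited gene-level TPM, made with kallisto on GRCm38 (mm10), per the submitters' processing notes. Neither its version nor its annotation is given in the sources used here. Libraries were stranded mRNA libraries of snap-frozen liver, per the labels' protocols. TPM keep no read counts, so the depth is unknown and precision was judged from 3 libraries a group. A line without a gene name (0.0104% to 0.025% of TPM) was left out.

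Tests used log2(TPM + 1) of genes whose average TPM over the 24 libraries was 1 or more. Groups were tested in limma (version 3.58.1, R 4.3.3), in 1 fit of 8 group means with a trend in expression (16 residual degrees of freedom) and no replicate block. P-values are two-sided and adjusted by Benjamini-Hochberg over all genes of a comparison, and genes under 0.05 were called. An exact permutation test of 3 against 3 cannot go below 0.1. The script was tested on simulated data. The comparisons were RD LFKO against RD LPKO, the same on HFD, and their interaction.

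The comparison, the 32 gene lists and the rule for names were chosen with earlier results of these data known. Foxo1 and Ppara were named first. Then came the 12 highest and 12 lowest log2 fold changes among called genes without overlap between groups, provided that the higher group averaged 5 TPM or more and that the symbol was no predicted, clone or RIKEN name, and the 5 most abundant called genes. Up to 6 members per list with the smallest adjusted p were named, any member called against the list's direction, and any member of short lists. On HFD 5 each way were named. Genes outside the rule are given as context and were chosen after their values were seen: Elovl3, Slco1a1, Cyp2b13, Igfbp1 on the regular diet, and those so described in the text. Some list members are not reported here. Alternatives were the pseudocount (0.1), no filter on low values or one at 5 TPM, median-of-ratios scaling, removal of Mup and mitochondrial genome transcripts, a fit of the compared groups alone, a block on the replicate number, and omission of each library in turn. Promoters are from RefSeq (GRCm38.p6) and shared 31-base words from GENCODE M21 transcripts.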

Additional observations from a re-analysis of the deposited data

Results flagged for a closer look

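Cyp2c69 differed between the diets by a test of the difference itself. Its LFKO minus LPKO log2 fold change was 4.17 on the regular and 0.48 on the high-fat diet, a difference of 3.69 ± 0.51 (adjusted p = 0.00575, limma). The regular-diet LFKO libraries ran from 15.99 to 53.1 TPM and the high-fat LFKO libraries from 0.183 to 0.855 TPM. All high-fat values were under 1 TPM, where the added 1 compresses a ratio (means of 0.524 and 0.0739 TPM). With a pseudocount of 0.1, or without Mup and mitochondrial genome transcripts, the difference between the diets was not called. Groups of 3 libraries are too small for a test of a single high or low library.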

How the results depend on the processing

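For RD LFKO against RD LPKO, 658 genes (328 higher, 330 lower) became 1094 (592 higher, 502 lower) with median-of-ratios scaling, 1308 (389 higher, 919 lower) without Mup and mitochondrial genome transcripts, which moved the median of all genes from -0.01 to -0.10, and 1370 (739 higher, 631 lower) in a fit of the compared groups alone. Of the 658, these settings kept 644, 635 and 627. Leaving out 1 library gave 391 to 458: 410, 391 and 436 without LFKO replicate 1, 2 and 3, and 427, 458 and 418 without LPKO replicate 1, 2 and 3. For HFD LFKO against HFD LPKO, 484 genes (350 higher, 134 lower) became 202 (132 higher, 70 lower) in the groups alone and 273 to 1244 without 1 library. The split moved to 375 and 328 with median-of-ratios scaling and to 364 and 318 without Mup and mitochondrial genome transcripts. For the LFKO against LPKO by diet interaction, 1 gene became 0 with a pseudocount of 0.1, 0 without Mup and mitochondrial genome transcripts, 3 with no filter, 5 in the groups alone and 1 to 4 without 1 library. The cause of these changes was not tested. No named or list gene changed sign while called in the regular-diet comparison, the only genes and comparison so checked. The 24 genes named by size kept direction and call in all 300 refits that could be had. They were picked as called and largest in the same values, so this is given as description. Deviations of same-numbered LFKO and LPKO libraries correlated at -0.15, -0.12 and -0.01 on the regular diet and at 0.06, 0.01 and -0.01 on the high-fat diet. Libraries of unlike number ran from -0.03 to 0.16 and from -0.16 to 0.15. Deviations from a mean of 3 libraries cannot tell whether same-numbered libraries share anything beyond the number. With the replicate block 621 genes were called (316 higher, 305 lower), 424 on HFD and 1 in the interaction. With no counts in the table, depth limits could not be set, and 3 libraries a group limit what can be called.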

Other observations

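Acute phase proteins, which the liver secretes in inflammation, had 2 of 15 genes called lower in LFKO than in LPKO livers on the regular diet and 0 higher, beside 3.13% of all genes called lower. An unadjusted p under 0.05 was reached by 7 of the 15 (46.7%), against 19% of all genes tested. Hpx, the haem-binding hemopexin, was at 1791, 2265 and 2805 TPM in LFKO and at 4460, 3343 and 3662 TPM in LPKO libraries, with WT at 1954 ± 39.1 TPM (-0.75 ± 0.16, adjusted p = 0.00512, limma). All LPKO libraries lay above all LFKO and WT libraries. Serpina3n, a protease inhibitor, was at 177 ± 5.54 against 246 ± 27.1 TPM (-0.47, adjusted p = 0.0188, limma), and lost the call without LFKO replicate 2 or 3 or LPKO replicate 2 (0.0615 to 0.115).

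Zfp36, which promotes decay of inflammatory mRNAs, was the 1 of 12 immediate early genes called, at 55.4, 52.6 and 55.0 TPM in LFKO and 35.9, 19.7 and 32.8 TPM in LPKO libraries (0.90 ± 0.24, adjusted p = 0.0295, limma). Its call was lost without any LFKO replicate, without LPKO replicate 2 and with no filter on low values (0.0676 to 0.178). Of the immediate early genes 2 had an unadjusted p under 0.05 (16.7%), and of all genes tested 3.11% were called higher. Of 13 stress response genes 0 were called by limma and 2 had an unadjusted p under 0.05 (15.4%), against 19% of all genes tested. The 13 mitochondrial genome transcripts had 0 calls and 0 at an unadjusted p under 0.05, and took 18.8% ± 0.708 of TPM in LFKO and 17.99% ± 0.487 in LPKO livers.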
